A study of Homo sapiens and Mus musculus with 69 samples.

Results

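The 10 genes described here encode proteins of cell-cell adhesion and the markers commonly read beside them when epithelial and mesenchymal states are compared. They are the cadherins CDH1, CDH2 and CDH11, the adhesion molecule EPCAM, the claudins CLDN3 and CLDN4, the splicing factor ESRP1, the intermediate filament VIM, the hyaluronan receptor CD44 and CTNNB1, which encodes beta-catenin. They were chosen by name, with earlier results of these data known, and all 10 were found among the 20516 genes of the human table and, under their mouse symbols, among the 18501 genes of the table of KP1 cells.

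The study examined Notch signaling in small cell lung cancer (SCLC), a neuroendocrine lung cancer. It measured polyA RNA by bulk RNA-Seq in 69 libraries, 60 of human SCLC lines (COR-L88, H69, H82 and H524) and 9 of KP1, a mouse SCLC line that lacks Rb1 and Trp53, in 23 groups of 3 libraries. Values are log2(RPKM + 1), where RPKM is reads per kilobase of gene scaled to the depth of the library, so that levels of different genes can be set side by side within a table. The 2 tables were normalized separately and are not compared with each other. The labels do not say whether the 3 libraries of a group came from separate cultures, and P values then measure only the spread between these libraries.

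H82, H524 and H69 were sequenced as parental cells and as cells carrying a lentiviral vector that expresses N1ICD, the active intracellular part of NOTCH1, under doxycycline (1 μg/mL), each without and with the inducer. H82 cells with this vector were also sequenced with REST KO and with STING1 KO, and H524 cells with a vector for REST, the repressor of neuronal genes, each without and with doxycycline. For all overexpression experiments the methods state that adherent cells were taken, after at least 28 days of doxycycline, so that groups with doxycycline may differ from those without it in the cells collected as well as in the inducer, and the 2 cannot be told apart. COR-L88 cells were given DMSO, the LSD1 inhibitor TAS1440 (100 nM) or TAS1440 with a γ-secretase inhibitor (GSI, BMS-708163 at 2 μM), which blocks the release of the intracellular part of Notch, for 28 days, and COR-L88 cells with STING1 KO were given DMSO or TAS1440. KP1 cells were given DMSO, TAS1440 or TAS1440 with the GSI DBZ (10 μM) for more than 28 days. KO lines were made with CRISPR, and the labels do not say which clone was sequenced or for how long any line was treated. The paper's figure legends give a longer overexpression of N1ICD for H69 than for H82 and H524. In differences between these lines, time and line cannot be told apart.

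Classical cadherins hold neighboring cells together by binding the same cadherin on the next cell, and their tails bind beta-catenin, which links them to actin and, when free, enters the nucleus as the effector of Wnt signaling. Epithelial cells typically carry E-cadherin (CDH1), EPCAM and claudins and express ESRP1, whereas N-cadherin (CDH2), cadherin-11 (CDH11), vimentin (VIM) and the ESRP-independent form of CD44 are typical of mesenchymal cells. In SCLC, which grows as loose clusters in suspension, N-cadherin is known from its neuroendocrine and neuronal character, and CD44 and vimentin from adherent, non-neuroendocrine variants.

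The targeted genes and the cell type markers were read first. With doxycycline NOTCH1 was between 4.26 and 10.74 in all libraries with the N1ICD vector, against 0.38 to 2.15 without it, and REST was 6.87, 10.72 and 9.43 in the 3 libraries of H524 cells with the REST vector and doxycycline, against 4.90 to 5.05 without. REST mRNA remained in H82 cells with REST KO (4.95, 4.95 and 5.89 with doxycycline, against 6.48, 6.13 and 6.33 in intact cells). STING1, listed as TMEM173, was 1.27, 1.53 and 2.04 in H82 cells with STING1 KO and doxycycline, against 1.07, 1.17 and 1.10 in intact cells, and 1.16, 1.09 and 0.96 in COR-L88 cells with STING1 KO and TAS1440, against 2.54, 2.04 and 2.03 in intact cells. A CRISPR KO need not lower mRNA, so these values do not check the STING1 labels. At least 6 of 8 neuroendocrine genes were at 1 or more in every library of every untreated or uninduced group. The 5 leukocyte genes summed to at most 1.18 in any human library, and of the 3 endothelial genes CDH5 and VWF were at most 0.47 with any inducer or drug. The third, KDR, was 4.45, 4.38 and 4.97 in H82 with N1ICD and doxycycline against 0.21, 0.11 and 0.32 without, and 2.47, 4.79 and 3.44 with STING1 KO and doxycycline against 0 in all libraries without. It was also 4.08, 3.34 and 1.92 in COR-L88 with TAS1440 against 0.56, 0.15 and 0.45 with DMSO. Fibroblast genes summed to 11.2 to 11.3 (log2 of the summed RPKM + 1) in H69 with doxycycline against 6.54 to 7.23 without, and 5 of 6 were at 1 or more in all libraries with it, PDGFRA being at most 0.056. The sum also was higher with N1ICD in H82 (6.93 to 7.76 against 1.17 to 3.72) and H524 (7.24 to 7.48 against 1.35 to 2.16). With doxycycline 3 of the 6 genes were at 1 or more in all libraries in H82, COL1A2 being at 0, and 4 of 6 in H524. The 8 neuroendocrine genes summed lower (8.01 to 8.82 against 13.1 to 14.4 in H82, 9.71 to 10.8 against 13.6 to 14.7 in H524). In induced H524 7 of these 8 were still at 1 or more in all libraries. In COR-L88 with TAS1440 the fibroblast sum was at most 2.47, and in KP1 with TAS1440 it was 4.03 to 6.22 against 0.580 to 1.29. The part that other cells, or these changes of markers, had in the results below was not tested. In bulk RNA, a smaller share of cells of a type and less RNA per cell cannot be told apart.

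The untreated human lines fell into a pair with high and a pair with low epithelial adhesion genes. EPCAM was 7.99 ± 0.23 in COR-L88 with DMSO, 6.39 ± 0.11 in parental H69, 1.96 ± 0.19 in H524 and 0.57 ± 0.50 in H82 (mean ± SD, n = 3 libraries), and each neighboring pair in this order differed (limma log2 fold change of H69 against COR-L88 -1.60, SE 0.25, adjusted P = 5.37e-07, and of H82 against H524 -1.39, SE 0.25, adjusted P = 8.69e-06). CDH1 followed the same order at lower levels, 5.18 ± 0.17, 2.84 ± 0.10, 0.064 ± 0.041 and 0.018 ± 0.031, and did not differ between H524 and H82 beyond the spread between libraries (difference -0.05, SE 0.16, adjusted P = 0.853). ESRP1 was near 10 in both H69 and COR-L88 (10.07 ± 0.059 and 9.94 ± 0.14) and between 4.17 and 4.89 in H524 and H82. Untreated H82 and H524 were below H69 and COR-L88 in CDH1, EPCAM, CLDN3, CLDN4 and ESRP1 in all 4 pairs of lines, and all 20 of these differences were called.

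**Figure D1:**
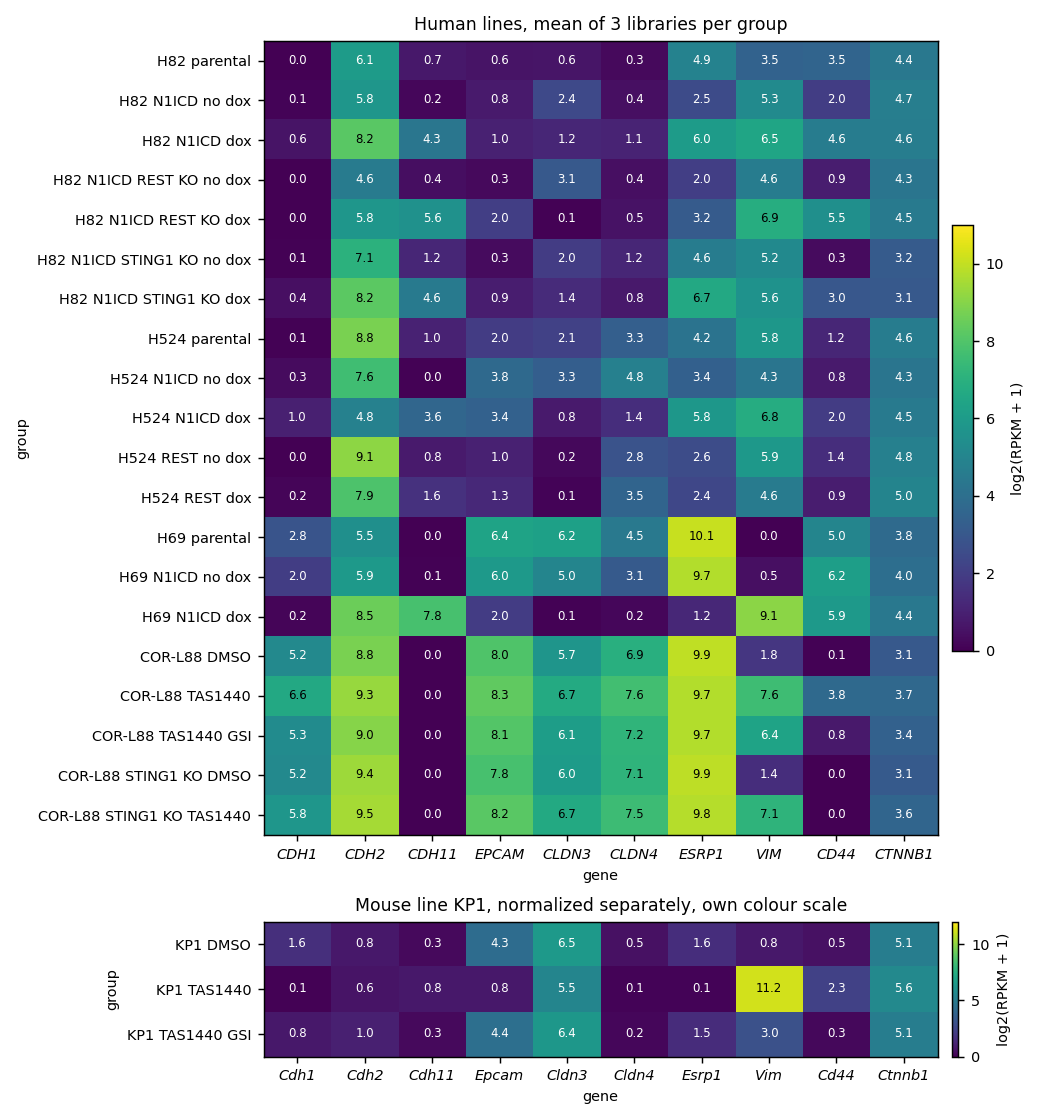
Mean log2(RPKM + 1) of each gene (columns) in each group (rows), over 3 libraries, with the human lines above and KP1, normalized separately and on its own color scale, below. EPCAM, CLDN3 and ESRP1 are highest in the H69 and COR-L88 groups without induced N1ICD, and CTNNB1 varies least over the human groups. CLDN4 is highest in COR-L88, but uninduced H524 N1ICD cells (4.80) are above parental H69 (4.46) and uninduced H69 N1ICD cells (3.12).

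VIM ran the other way in part. It was 5.82 ± 0.92 in parental H524, 3.46 ± 0.70 in H82, 1.76 ± 0.16 in COR-L88 and 0.0072 ± 0.013 in H69, in which it was listed at 0 in 2 of 3 libraries. CDH2 was high in H524 and COR-L88 (8.79 ± 0.20 and 8.81 ± 0.14) and lower in H82 and H69 (6.06 ± 0.99 and 5.50 ± 0.039), so that COR-L88 had the most CDH1 and, with H524, the most CDH2. CD44 was 5.00 ± 0.21 in H69, 3.53 ± 0.16 in H82, 1.19 ± 0.47 in H524 and 0.076 ± 0.070 in COR-L88. CDH11 was at most 1.35 in any library of these 4 groups. Of the 10 genes, 6 were called between H82 and H524, against 28.5% of the 15888 genes tested, 7 between H82 and H69, against 41.2%, and 9 between H82 and COR-L88, against 36.4%. Between H524 and H69 it was 9, against 30.3%, between H524 and COR-L88 9, against 31.3%, and between H69 and COR-L88 6, against 30.6%.

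Across the 11 comparisons of doxycycline or TAS1440 with the matching control, VIM was called in 8, always higher, CD44 in 6, always higher, and CDH11 in 5 of the 6 in which it was tested, always higher. CLDN3 (4 comparisons) and CLDN4 (2 comparisons) were called lower only. CDH1, CDH2, EPCAM and ESRP1 were called in both directions, and CTNNB1 was called in none of 11 (limma, unadjusted P under 0.05 in 4). A gene was called where limma gave an adjusted P under 0.05 and the values differed by 1 or more on the log2 scale.

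The calls per comparison were as follows. With N1ICD, 6 of 9 tested genes were called in H82, against 27.1% of all genes tested in that comparison, 7 of 9 in H524, against 18.6%, and all 10 but CD44 and CTNNB1 in H69, 8 of 10, against 41.8%. In H82 with REST KO 6 of 9 were called, against 29.9%, and with STING1 KO 3 of 9, against 20.2%. Induction of REST in H524 changed 1 of 9 genes, against 1.87%. TAS1440 changed 3 of 9 genes in COR-L88, against 22.8%, 1 of 9 in COR-L88 with STING1 KO, against 16%, and 5 of 7 in KP1, against 18.8%. With GSI added to TAS1440, 1 of 9 was called in COR-L88, against 9.02%, and none of 7 in KP1 (limma, unadjusted P under 0.05 in 2), against 1.21%. CDH1 in H82 and H524, CDH11 in COR-L88 and Cdh2, Cdh11 and Cldn4 in KP1 did not reach a log2 value of 1 in 3 libraries and were not tested. In COR-L88 with TAS1440 plus GSI or with STING1 KO the 1 call was close to the share of all genes.

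**Figure D2:**
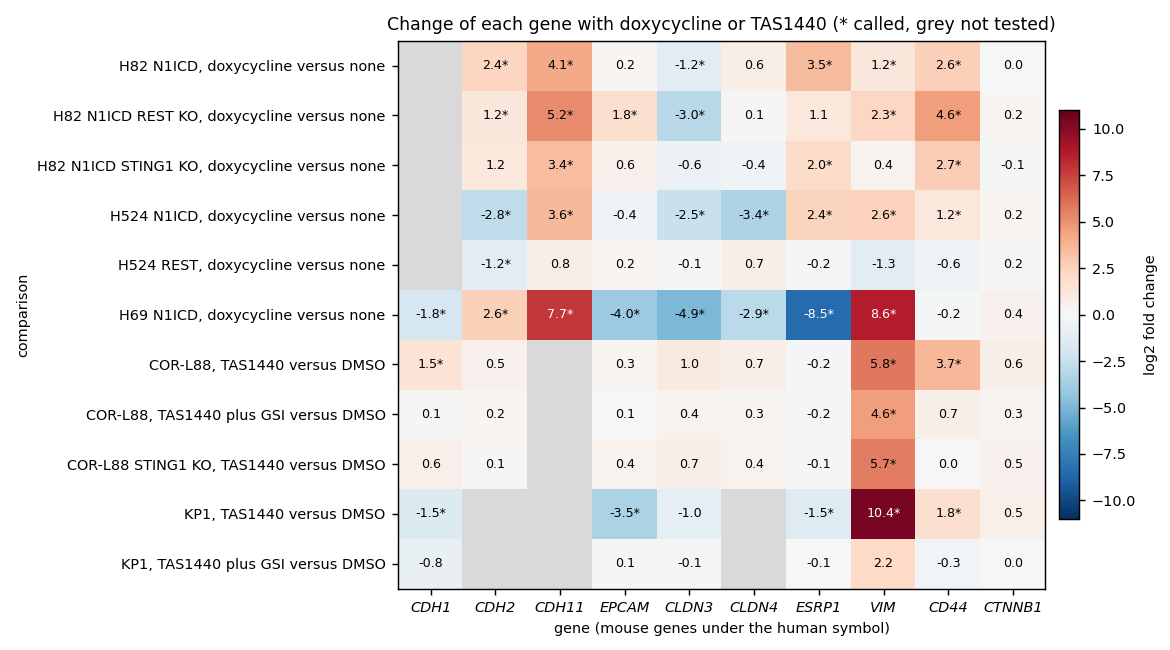
Log2 fold change of each gene (columns) in each comparison of doxycycline or TAS1440 with its control (rows), from limma, with an asterisk where the gene was called and grey where it was not tested. The VIM column holds 8 called increases and the CTNNB1 column no call.

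CDH1 (chromosome 16, 68771195 to 68869440 of GRCh37, plus strand) encodes E-cadherin, the main cadherin of epithelia. In H69 with the N1ICD vector it was 1.55, 2.29 and 2.16 without and 0.23, 0.17 and 0.066 with doxycycline. All libraries with doxycycline were below all without it (log2 fold change -1.84, SE 0.17, limma adjusted P = 1.11e-05).

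In COR-L88 CDH1 moved the other way. It was 5.28, 4.98 and 5.28 with DMSO, 6.53, 6.79 and 6.63 with TAS1440 and 5.48, 5.28 and 5.20 with TAS1440 and GSI. The TAS1440 libraries stood above both other groups, which overlapped each other. CDH1 rose with TAS1440 against DMSO (log2 fold change 1.47, SE 0.14, limma adjusted P = 1.14e-06) and was higher with TAS1440 alone than with GSI added (1.33, SE 0.14, limma adjusted P = 8.55e-06). In COR-L88 with STING1 KO the TAS1440 libraries (5.51, 5.96 and 5.82) were above the DMSO libraries (5.33, 5.05 and 5.20) by 0.57 (SE 0.14, limma adjusted P = 0.0045), less than the fold change required for a call, and the difference between the 2 responses was -0.90 (SE 0.20, limma adjusted P = 0.0162), also under that size.

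In KP1 Cdh1 was 1.49, 1.54 and 1.75 with DMSO, 0.082, 0.045 and 0.14 with TAS1440, and 1.16, 0.65 and 0.57 with TAS1440 and GSI. The 3 groups did not overlap, with the GSI group between the others. Cdh1 fell with TAS1440 (log2 fold change -1.51, SE 0.16, limma adjusted P = 8.58e-05), in the mouse line the opposite direction to COR-L88, and its value near 0 with TAS1440 means that the scale understates the change. In H82 and H524 CDH1 was at most 1.49 in any library.

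CDH2 (chromosome 18, 25512843 to 25757910, minus strand) encodes N-cadherin, the cadherin of neural and many mesenchymal cells. Its response to N1ICD was opposite in the 2 lines with the lowest epithelial genes. In H82 it was 4.79, 6.14 and 6.40 without and 8.51, 8.10 and 7.94 with doxycycline. In H524 it was 7.70, 7.28 and 7.96 without and 5.26, 4.40 and 4.79 with doxycycline. Neither pair of groups overlapped: CDH2 rose in H82 (log2 fold change 2.40, SE 0.48, limma adjusted P = 0.000461) and fell in H524 (-2.83, SE 0.27, limma adjusted P = 2.55e-06). The difference between the 2 responses was 5.23 (H82 minus H524, SE 0.49, limma adjusted P = 5.71e-12), and 19.7% of the 15888 genes tested were called in that contrast.

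In H69 CDH2 was 6.22, 5.62 and 5.90 without and 8.48, 8.51 and 8.56 with doxycycline, a rise of 2.61 (SE 0.13, limma adjusted P = 1.68e-07) with no overlap. Its response in H69 did not differ from that in H82 beyond the spread (0.20, SE 0.49, limma adjusted P = 0.747). Induction of REST in H524 gave 9.32, 8.98 and 9.03 without and 8.43, 7.41 and 8.01 with doxycycline. Here too every library with the inducer was below every one without it (-1.16, SE 0.27, limma adjusted P = 0.0396), but the call was lost in 7 of 12 alternative analyses, among them those without H524 REST library 2 or 3 with doxycycline or any 1 library without it, with adjusted P up to 0.161.

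With REST KO in H82, CDH2 was 4.00, 4.12 and 5.57 without and 5.22, 5.76 and 6.32 with doxycycline. The groups overlapped, and the call (1.20, SE 0.48, limma adjusted P = 0.044) was lost in 7 of 12 alternatives, among them those without induced library 2 or 3 or uninduced library 1 or 2, with adjusted P up to 0.171. With doxycycline, cells with REST KO were below intact cells (-2.41, SE 0.48, limma adjusted P = 0.000786). Without doxycycline the same difference was not called (-1.21, SE 0.48, limma adjusted P = 0.0978), and the difference between the 2 doxycycline responses was not called (-1.20, SE 0.68, limma adjusted P = 0.257). In COR-L88 CDH2 stayed between 8.70 and 9.61 in all 15 libraries, and no comparison there was called, the range of its 3 log2 fold changes with TAS1440 being 0.11 to 0.51.

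CDH2 and CDH1 were also set against each other within each library. In H69 CDH2 minus CDH1 was 3.91 ± 0.68 without and 8.36 ± 0.12 with doxycycline, in H82 5.66 ± 0.78 and 7.61 ± 0.021, and in H524 7.31 ± 0.44 and 3.83 ± 0.087 (mean ± SD, n = 3 libraries, two-sided exact permutation test P = 0.1 for each, the smallest that 3 against 3 libraries allow). It was larger with N1ICD in H69 and H82 and smaller in H524, where CDH2 fell. CDH1 was near 0 in several of these groups, and with 0.1 added to RPKM in place of 1 the change in H82 was 0.77 in place of 1.95, while that in H82 with STING1 KO turned from 0.78 to -0.44. In COR-L88 it was 3.63 ± 0.18 with DMSO, 2.67 ± 0.20 with TAS1440 (exact P = 0.1) and 3.67 ± 0.19 with GSI added (exact P = 0.8 against DMSO).

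CDH11 (chromosome 16, 64977656 to 65160015, minus strand) encodes a cadherin of osteoblasts and fibroblasts. In H69 it was 0.17, 0 and 0 without and 7.82, 7.79 and 7.81 with doxycycline. In H82 it was 0.18, 0.047 and 0.32 without and 4.03, 4.05 and 4.87 with doxycycline, and in H524 0.11, 0 and 0.040 without and 2.96, 3.57 and 4.35 with it. CDH11 was thus near the floor in all uninduced N1ICD libraries of these lines and well above it in all induced ones.

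The log2 fold change of CDH11 was 7.75 in H69 (SE 0.07, limma adjusted P = 8.8e-12), 4.14 in H82 (SE 0.32, limma adjusted P = 7.02e-09) and 3.58 in H524 (SE 0.28, limma adjusted P = 2.53e-07). The response in H69 exceeded that in H82 by 3.61 (SE 0.35, limma adjusted P = 3.4e-12), in a contrast in which 43.1% of all genes were called, and those of H82 and H524 differed by 0.56 (SE 0.35, limma adjusted P = 0.228). With REST KO in H82, CDH11 reached 5.73, 5.88 and 5.07 with doxycycline, above intact cells by 1.24 (SE 0.32, limma adjusted P = 0.00507), a call that was lost with 0.1 added to RPKM in place of 1 (adjusted P = 0.0763). With STING1 KO it was 3.88, 5.06 and 4.71, overlapping intact cells (difference 0.23, SE 0.32, limma adjusted P = 0.591). Induced REST in H524 left it at 1.73, 1.40 and 1.58 against 0.89, 0.81 and 0.73, not called (0.76, SE 0.28, limma adjusted P = 0.167), while N1ICD raised it by 2.82 more than REST did (SE 0.39, limma adjusted P = 0.000151), in a contrast in which 15.6% of genes were called. In COR-L88 it was listed at 0 in 14 of 15 libraries. The fibroblast collagen COL1A1 had the CDH11 pattern most closely among all human genes (Pearson r = 0.98 over the 20 human group means, which share cell lines and vectors), followed by ALPK2 and HCG22 (0.97 each).

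EPCAM (chromosome 2, 47572297 to 47614740, plus strand) encodes an epithelial surface molecule used to capture tumor cells from blood. In H69 it was 6.10, 5.97 and 5.84 without and 1.96, 1.85 and 2.04 with doxycycline. In KP1 Epcam was 4.19, 4.29 and 4.32 with DMSO, 0.030, 0.47 and 1.89 with TAS1440 and 4.70, 4.77 and 3.62 with TAS1440 and GSI. In both lines the induced or treated libraries were below all controls. The falls were 4.02 in H69 (log2 fold change -4.02, SE 0.09, limma adjusted P = 1.6e-09) and 3.47 in KP1 (-3.47, SE 0.46, limma adjusted P = 0.000341), and Epcam was lower with TAS1440 alone than with GSI added (-3.57, SE 0.46, limma adjusted P = 0.000335).

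EPCAM did not follow in the other lines. In COR-L88 it was 8.21, 8.00 and 7.75 with DMSO and 8.51, 8.19 and 8.25 with TAS1440, overlapping groups (0.33, SE 0.13, limma adjusted P = 0.0437, below the fold change for a call). In H524 it was 4.60, 3.13 and 3.60 without and 4.17, 2.92 and 3.18 with N1ICD (-0.35, SE 0.37, limma adjusted P = 0.507). In intact H82 with the N1ICD vector it was at most 1.25 in all 6 libraries, whereas with REST KO it was 0.20, 0.25 and 0.36 without and 1.88, 1.97 and 2.22 with doxycycline, a rise of 1.76 (SE 0.23, limma adjusted P = 5.53e-06) that exceeded that of intact cells by 1.51 (SE 0.33, limma adjusted P = 0.00371, with 12.9% of all genes called in this contrast).

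CLDN3 (chromosome 7, 73183327 to 73184600, minus strand) and CLDN4 (chromosome 7, 73213872 to 73247020, plus strand) encode sealing claudins of epithelial tight junctions. The 2 genes lie 29271 bases apart. Their promoters are shown because the genes are neighbors, are called lower only in the 11 comparisons with doxycycline or TAS1440, and were called together in some of these comparisons and not in others. The RefSeq promoter table (250 bases before to 50 after a start, GRCh38.p14) held 6 of the 10 genes, namely CDH2, CLDN3, CLDN4, VIM, CD44 and CTNNB1. The 250 bases before each claudin start are given 5′ to 3′ on the strand of the gene, with motif letters in capitals, and were placed by exact match at chr7:73184601-73184850 (CLDN3) and chr7:73245076-73245325 (CLDN4, inside the annotated gene span, which has an earlier start) of GRCh37. A further line gives 30 bases past the CLDN3 start, at chr7:73184551-73184580.
CLDN3 upstream: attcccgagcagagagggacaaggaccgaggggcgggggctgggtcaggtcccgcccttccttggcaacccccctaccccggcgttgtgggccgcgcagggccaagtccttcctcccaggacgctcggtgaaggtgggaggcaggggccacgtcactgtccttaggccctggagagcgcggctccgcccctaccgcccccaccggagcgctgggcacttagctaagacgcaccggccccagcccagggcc
CLDN4 upstream: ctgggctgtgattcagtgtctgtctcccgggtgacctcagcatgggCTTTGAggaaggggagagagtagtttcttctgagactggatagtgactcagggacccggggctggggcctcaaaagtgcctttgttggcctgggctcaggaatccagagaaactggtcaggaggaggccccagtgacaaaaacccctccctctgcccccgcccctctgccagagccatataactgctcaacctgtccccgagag
CLDN3 E-box: cccacaaagccacaggCAGGTGcaggcgca
The capitals mark the E-box CAGGTG, a site type bound by SNAI and ZEB factors, which begins 37 bases into CLDN3 counting the first transcribed base as 1, and CTTTGA, a core of TCF/LEF sites, which begins 204 bases before the CLDN4 start. Both strands were searched for the letters CAGGTG, for TGGGAA, the core bound by RBPJ, and for the letters CTTTGA, which stood in 20.6%, 24.0% and 12.9% of all 35116 promoters. The promoters of CDH2, VIM, CD44 and CTNNB1 held none of the 3 in this window. The CLDN3 stretch held 19 CpG and 71.6% G and C, that of CLDN4 4 CpG and 58.8%.

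In H69 CLDN3 was 4.89, 5.15 and 4.96 without and 0.16, 0 and 0 with doxycycline, and CLDN4 2.64, 3.44 and 3.29 without and 0.12, 0.32 and 0.11 with it. Both claudins were near the floor in all induced libraries (CLDN3 log2 fold change -4.94, SE 0.13, limma adjusted P = 3.02e-09, CLDN4 -2.94, SE 0.19, limma adjusted P = 9e-07). In H524 CLDN3 was 3.20, 3.58 and 3.03 without and 1.01, 0.65 and 0.69 with N1ICD, and CLDN4 4.43, 5.86 and 4.10 without and 1.85, 1.24 and 1.24 with it. Neither pair overlapped, and both genes fell (-2.49, SE 0.17, limma adjusted P = 6.98e-08, and -3.36, SE 0.51, limma adjusted P = 0.000175).

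In H82 only CLDN3 was called. It was 2.49, 2.43 and 2.37 without and 1.28, 1.14 and 1.13 with N1ICD (log2 fold change -1.25, SE 0.29, limma adjusted P = 0.00142), and with REST KO 3.19, 2.97 and 3.12 without and 0, 0.12 and 0.062 with doxycycline (-3.03, SE 0.29, limma adjusted P = 6.83e-08). The fall was larger with REST KO by 1.78 (log2 difference of the responses -1.78, SE 0.40, limma adjusted P = 0.00472). Parental H82 had CLDN3 at 1.57, 0.15 and 0.088, below the uninduced vector libraries and overlapping the induced libraries of intact cells. The fall in intact cells is thus against the uninduced vector line and not against parental cells. CLDN4 was 0.59, 0.51 and 0.24 without and 1.21, 0.78 and 1.25 with N1ICD in intact H82, low in both (0.63, SE 0.19, limma adjusted P = 0.0106). The CLDN4 response of H82 was thus above that of H524 by 3.99 (SE 0.45, limma adjusted P = 1.01e-09). REST induction in H524 called neither claudin.

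TAS1440 did not lower the claudins in COR-L88. CLDN3 was 5.74, 5.75 and 5.71 with DMSO and 6.17, 6.91 and 7.03 with TAS1440, and CLDN4 7.09, 6.78 and 6.91 and then 7.42, 7.66 and 7.86. Every TAS1440 library was above every DMSO library for both, at differences just under the size for a call (CLDN3 0.97, SE 0.18, limma adjusted P = 0.000499, CLDN4 0.72, SE 0.13, limma adjusted P = 0.000337). In KP1 Cldn3 was 6.57, 6.62 and 6.20 with DMSO and 4.21, 5.96 and 6.19 with TAS1440, not called (-1.01, SE 0.46, limma adjusted P = 0.115). Without TAS1440 library 3 it was -1.38 (limma adjusted P = 0.0423) and called.

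ESRP1 (chromosome 8, 95653302 to 95719694, plus strand) encodes an RNA-binding protein that directs epithelial splice forms, among them the variant forms of CD44. It moved in opposite directions in the human lines. In H69 it was 9.57, 9.83 and 9.75 without and 0.84, 1.73 and 1.11 with doxycycline, the largest fall of any of the 10 genes in the 11 comparisons (log2 fold change -8.49, SE 0.20, limma adjusted P = 1.76e-09).

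In H82 ESRP1 was 1.04, 3.21 and 3.29 without and 6.27, 6.09 and 5.70 with N1ICD. In H524 it was 3.76, 2.94 and 3.44 without and 6.62, 5.19 and 5.59 with it. In both lines every induced library was above every uninduced one, and ESRP1 rose (3.50, SE 0.52, limma adjusted P = 2.15e-05, and 2.42, SE 0.47, limma adjusted P = 0.00137). Parental H82 had 5.74, 4.88 and 4.05, above the uninduced vector libraries and overlapping the induced ones. Parental H524 had 4.88, 4.04 and 3.60, below all induced libraries of that line. The response in H69 was below that in H82 (log2 difference -11.99, SE 0.61, limma adjusted P = 2.29e-21) and that in H524 (-10.91, SE 0.61, limma adjusted P = 8.83e-20, with 36.8% of all genes called).

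The rise of ESRP1 in H82 was smaller with REST KO, 2.15, 1.94 and 2.03 without and 3.50, 3.10 and 2.89 with doxycycline (1.12, SE 0.52, limma adjusted P = 0.0775). With doxycycline it was 2.85 lower with REST KO than in intact cells (log2 fold change -2.85, SE 0.52, limma adjusted P = 0.000331), and the difference of the responses was -2.38 (SE 0.73, limma adjusted P = 0.0325). With STING1 KO it was 4.79, 4.91 and 4.16 without and 7.63, 5.95 and 6.39 with doxycycline (2.03, SE 0.52, limma adjusted P = 0.00464). REST in H524 gave 2.53, 2.52 and 2.64 without and 1.66, 1.94 and 3.49 with doxycycline, overlapping groups (-0.20, SE 0.47, limma adjusted P = 0.87). TAS1440 left it between 9.52 and 10.10 in all 15 COR-L88 libraries, while in KP1 Esrp1 was 1.65, 1.66 and 1.38 with DMSO, 0.0066, 0.11 and 0.22 with TAS1440 and 1.98, 1.62 and 0.91 with GSI added. Esrp1 thus fell with TAS1440 alone (-1.45, SE 0.24, limma adjusted P = 0.00122).

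**Figure D3:**
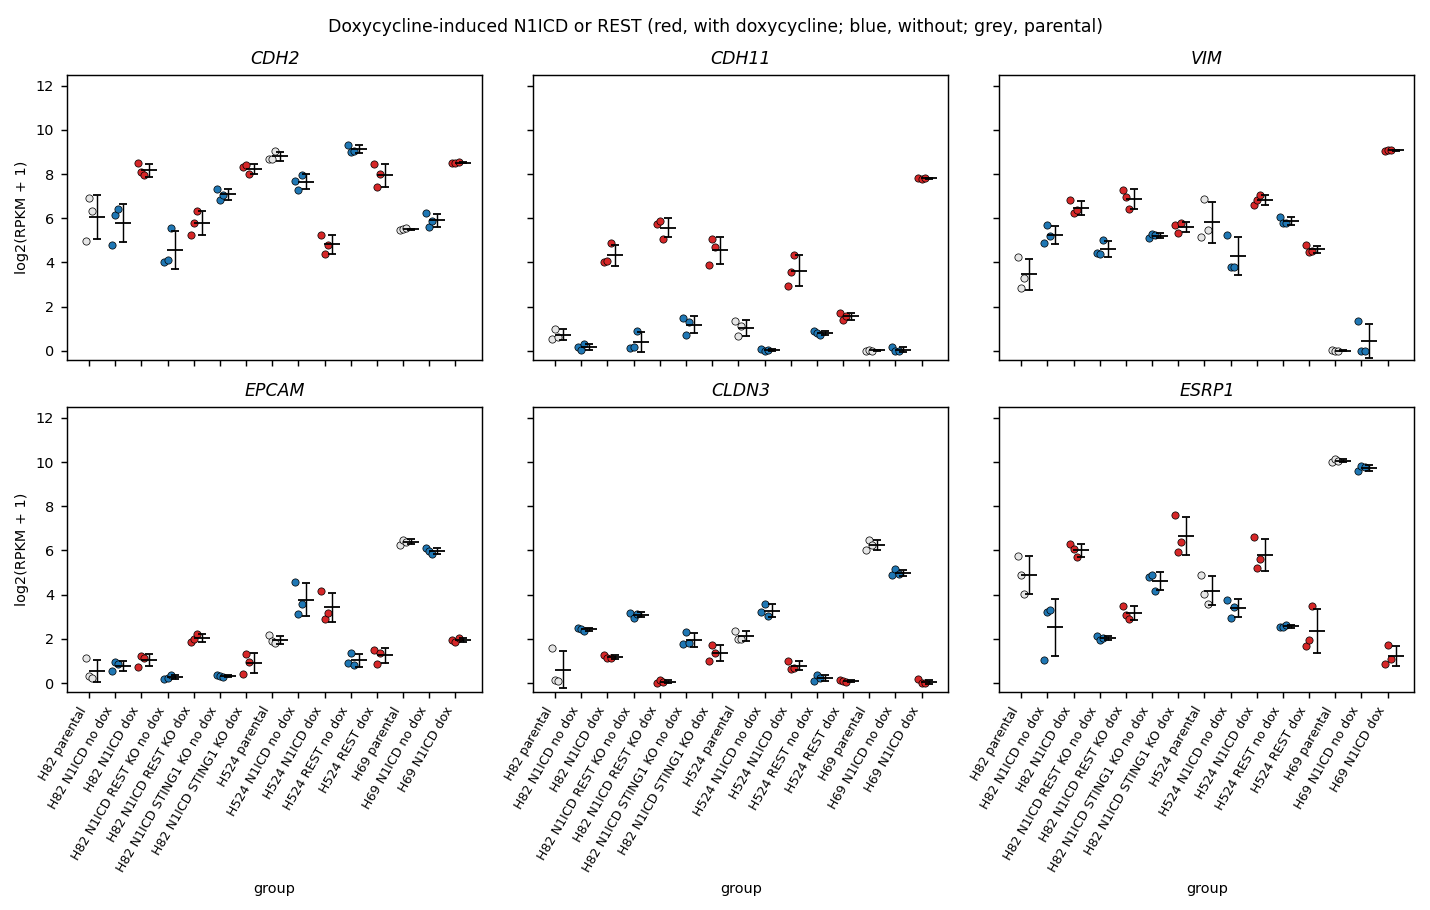
Log2(RPKM + 1) of 6 genes in each library (points) of the H82, H524 and H69 groups, with mean ± SD (bars, n = 3 libraries), red with doxycycline, blue without and grey for parental cells. CDH11 and VIM are highest in the 3 induced H69 libraries, CDH2 is lower with N1ICD in H524 only, and ESRP1 is near 10 in uninduced H69 and at most 1.73 in induced H69.

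VIM (chromosome 10, 17270240 to 17279592, plus strand) encodes vimentin, the intermediate filament of mesenchymal cells. The antisense gene VIM-AS1 overlaps it, and since strand use in the counting is not stated, reads of the 2 could be mixed. VIM gave the largest single change of the 10 genes. In KP1 Vim was 0.63, 1.04 and 0.62 with DMSO and 11.32, 10.85 and 11.35 with TAS1440. In H69 it was 1.36, 0 and 0 without and 9.06, 9.09 and 9.08 with N1ICD. In COR-L88 it was 1.73, 1.62 and 1.93 with DMSO and 7.32, 7.70 and 7.70 with TAS1440. Every treated or induced library was above 7 in these 3 lines and every control at most 1.93. The uninduced H69 library with VIM at 1.36 also had REST at 1.34, against 0 and 0.12 in the other 2. The log2 fold changes were 10.41 in KP1 (SE 0.55, limma adjusted P = 1.96e-06), 8.62 in H69 (SE 0.32, limma adjusted P = 2.71e-08) and 5.81 in COR-L88 (SE 0.22, limma adjusted P = 4.8e-10).

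In lines that already expressed VIM the change was smaller. In H524 it was 5.26, 3.77 and 3.78 without and 6.58, 6.83 and 7.07 with N1ICD (log2 fold change 2.55, SE 0.43, limma adjusted P = 0.000389). In H82 it was 4.89, 5.68 and 5.19 without and 6.84, 6.23 and 6.37 with N1ICD (1.23, SE 0.31, limma adjusted P = 0.00297), and neither pair overlapped. Parental H524 had VIM at 5.14, 6.88 and 5.45, overlapping the induced libraries of that line. The rise in H524 is thus against the uninduced vector line and not against parental cells. With REST KO in H82 VIM was 4.43, 4.37 and 5.02 without and 7.26, 6.95 and 6.40 with doxycycline (2.26, SE 0.31, limma adjusted P = 7.32e-06), and the 2 responses did not differ by a call (1.04, SE 0.44, limma adjusted P = 0.119). With STING1 KO it was 5.11, 5.30 and 5.24 without and 5.69, 5.34 and 5.80 with doxycycline, a difference of 0.39 (SE 0.31, limma adjusted P = 0.338) whose comparison with the response of intact cells was not called either (-0.84, SE 0.44, limma adjusted P = 0.251). Induced REST in H524 gave 6.07, 5.80 and 5.76 without and 4.79, 4.48 and 4.50 with doxycycline. All induced libraries were lower, but the difference was not called with all H524 groups in the fit (-1.29, SE 0.43, limma adjusted P = 0.131) and was called with only those 2 groups (limma adjusted P = 0.0123). The VIM response to N1ICD exceeded that to REST by 3.84 (SE 0.60, limma adjusted P = 0.000448).

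With GSI added to TAS1440, VIM was lower than with TAS1440 alone and above DMSO in every library of COR-L88 and KP1. In COR-L88 with both agents it was 6.67, 6.24 and 6.24, above DMSO by 4.62 (SE 0.22, limma adjusted P = 5.17e-09) and 1.19 lower than with TAS1440 alone (TAS1440 against TAS1440 plus GSI 1.19, SE 0.22, limma adjusted P = 0.000628). In KP1 with both agents Vim was 1.73, 2.84 and 4.40, below TAS1440 alone by 8.18 (TAS1440 against TAS1440 plus GSI 8.18, SE 0.55, limma adjusted P = 9.69e-06), and its difference from DMSO was not called (2.23, SE 0.55, limma adjusted P = 0.0889). The fibroblast gene Pdgfra was 0.48, 1.44 and 2.84 in these 3 libraries, and its part was not tested. Without KP1 TAS1440 plus GSI library 1 that difference was 2.86 and called (limma adjusted P = 0.0198). With STING1 KO in COR-L88 VIM was 1.21, 2.03 and 1.06 with DMSO and 7.05, 7.31 and 7.06 with TAS1440, a rise of 5.70 (SE 0.22, limma adjusted P = 5.52e-10). It differed from that of intact cells by -0.11 (SE 0.31, limma adjusted P = 0.855).

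CD44 (chromosome 11, 35160429 to 35253949, plus strand, with the antisense genes CD44-DT and CD44-AS1) encodes the receptor for hyaluronan, whose splice forms RPKM of the whole gene does not separate. In COR-L88 it was 0.091, 0 and 0.14 with DMSO, 3.87, 4.79 and 2.65 with TAS1440 and 1.38, 0.66 and 0.25 with TAS1440 and GSI. In COR-L88 with STING1 KO it was 0 in all 3 DMSO libraries and 0.056, 0 and 0 with TAS1440. CD44 was thus present in all TAS1440 libraries of intact cells and at or near 0 in those with STING1 KO.

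CD44 rose with TAS1440 in intact COR-L88 (log2 fold change 3.69, SE 0.39, limma adjusted P = 3.45e-06), was higher than with GSI added (3.01, SE 0.39, limma adjusted P = 4.62e-05) and, with TAS1440, was 3.75 lower with STING1 KO than in intact cells (log2 fold change -3.75, SE 0.39, limma adjusted P = 3.71e-05). The difference between the TAS1440 responses with and without STING1 KO was -3.68 (SE 0.56, limma adjusted P = 0.00295), and CD44 was the only 1 of 9 tested members called in that contrast, against 4.23% of all genes. In the same contrast the other 8 tested members were not called, with differences of -0.90 for CDH1, -0.40 for CDH2, -0.31 for CLDN3, -0.32 for CLDN4, -0.17 for CTNNB1, -0.11 for VIM, 0.067 for EPCAM and 0.063 for ESRP1. NOTCH1 was at 1.99 to 2.79 in intact and 2.82 to 4.93 in STING1 KO cells with TAS1440, and its part in the CD44 difference was not tested. In KP1 Cd44 was 0.70, 0.79 and 0.17 with DMSO, 2.10, 2.48 and 2.32 with TAS1440 and 0.063, 0.14 and 0.55 with GSI added. It rose with TAS1440 (1.75, SE 0.20, limma adjusted P = 0.000133) and was higher than with GSI added (2.05, SE 0.20, limma adjusted P = 6.11e-05).

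**Figure D4:**
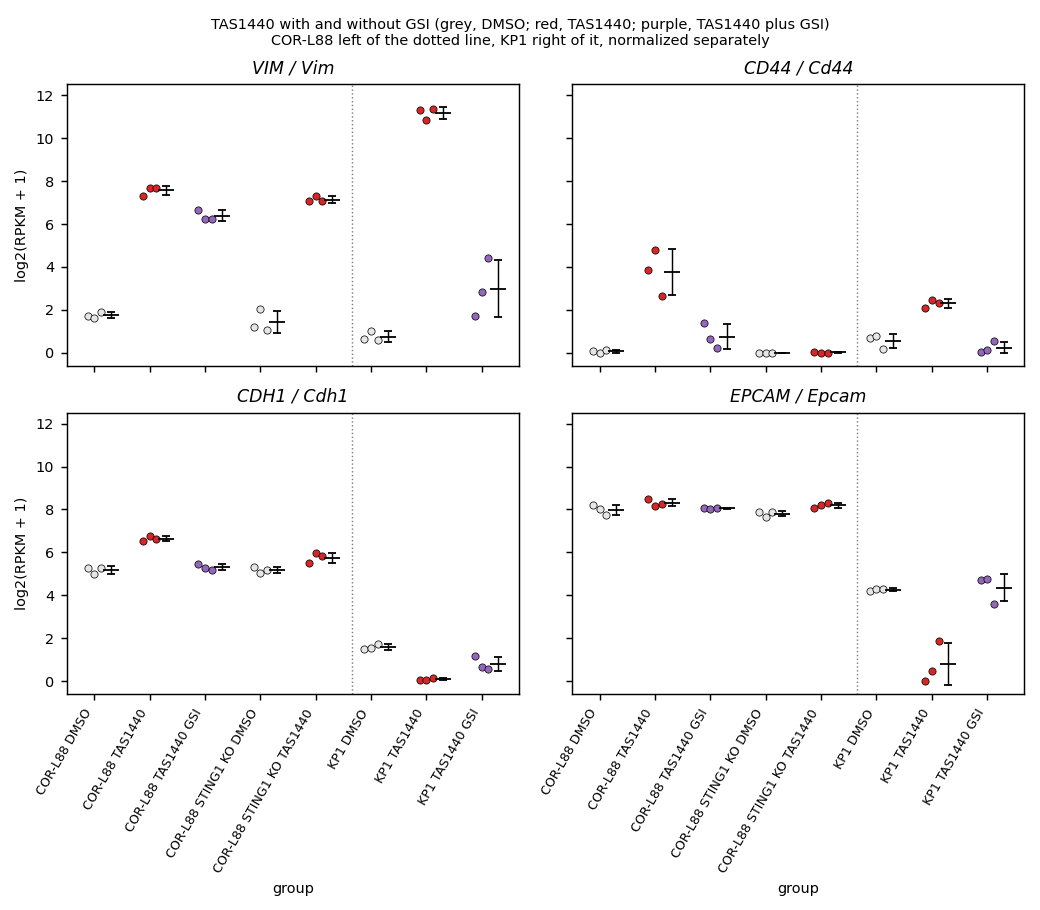
Log2(RPKM + 1) of VIM, CD44, CDH1 and EPCAM in each library (points) of COR-L88 and KP1, with mean ± SD (bars, n = 3 libraries), grey for DMSO, red for TAS1440 and purple for TAS1440 plus GSI. CD44 is above 2.6 in the 3 intact COR-L88 libraries with TAS1440 and at most 0.056 with STING1 KO, while VIM is above 7 in both.

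In H82 CD44 was 3.67, 3.35 and 3.56 in parental cells, 1.49, 2.12 and 2.41 in uninduced N1ICD cells and 4.55, 4.63 and 4.65 with doxycycline. The induced libraries were above both other groups, and the uninduced vector libraries below the parental ones. The rise with doxycycline was 2.60 (SE 0.36, limma adjusted P = 9.44e-06). With REST KO CD44 was 0.66, 0.67 and 1.37 without and 5.77, 5.48 and 5.19 with doxycycline (4.58, SE 0.36, limma adjusted P = 5.67e-09), a rise larger than in intact cells by 1.98 (SE 0.51, limma adjusted P = 0.0112).

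With STING1 KO in H82, CD44 was 0.45, 0.22 and 0.26 without and 1.80, 3.59 and 3.56 with doxycycline, below intact cells in both conditions (-1.70, SE 0.36, limma adjusted P = 0.00148, without, and -1.62, SE 0.36, limma adjusted P = 0.00178, with doxycycline). Its rise with doxycycline was 2.67 (SE 0.36, limma adjusted P = 1.05e-05), and the difference from the rise in intact cells was 0.07 (SE 0.51, limma adjusted P = 0.954), a contrast in which 7.12% of all genes were called. In H524 CD44 was 1.85, 0.48 and 0.032 without and 2.16, 1.88 and 1.82 with N1ICD, groups that overlapped by 1 library, and the call (1.17, SE 0.37, limma adjusted P = 0.0256) was lost in 8 of 12 alternatives, among them those without any 1 of the 3 induced libraries or without uninduced library 2 or 3, with adjusted P up to 0.12. In H69, where CD44 was the highest of the untreated lines, it was 6.38, 5.93 and 6.19 without and 5.87, 5.97 and 5.95 with N1ICD (-0.23, SE 0.13, limma adjusted P = 0.132).

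CTNNB1 (chromosome 3, 41236232 to 41301587, plus strand, overlapped on the other strand by ULK4) encodes beta-catenin, the partner of all 3 cadherins. Its mRNA varied least of the 10 in the human libraries, from 2.80 to 5.07. Its log2 fold changes in the 11 comparisons ran from -0.10 to 0.63, all under the size for a call. In H69 it was 3.93, 3.99 and 4.06 without and 4.45, 4.37 and 4.45 with N1ICD, separate groups that differed by 0.43 (SE 0.06, limma adjusted P = 0.000144, 95% interval 0.29 to 0.57). In COR-L88 it was 3.16, 2.96 and 3.14 with DMSO and 3.79, 3.69 and 3.65 with TAS1440 (0.63, SE 0.13, limma adjusted P = 0.000981), likewise without overlap.

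The exception was H82 with STING1 KO. CTNNB1 was 4.87, 4.68 and 4.53 in intact uninduced N1ICD cells and 3.12, 3.05 and 3.33 with STING1 KO, and with doxycycline 4.55, 4.79 and 4.61 in intact cells and 2.81, 3.35 and 3.03 with STING1 KO. All 6 STING1 KO libraries were below all 6 intact ones (log2 fold change -1.53, SE 0.17, limma adjusted P = 3.74e-06, without, and -1.59, SE 0.17, limma adjusted P = 2.5e-06, with doxycycline), and CTNNB1 was not called with doxycycline in either. No such difference was seen in COR-L88 with STING1 KO (0.04 with DMSO, SE 0.13, limma adjusted P = 0.887). In the same 2 comparisons of H82, which was looked at after these values were seen, the 711 tested genes of chromosome 3 had a median log2 fold change of -0.70 without and -0.74 with doxycycline, and 84.2% and 85.4% of them were lower with STING1 KO, against medians over all genes of -0.11 and -0.096. Of the other 21 autosomes chromosome 2 had the lowest medians (-0.53 and -0.56), and the highest were 0.23 and 0.25. The part of a shift of chromosome 3 in the CTNNB1 difference was not tested. Over the 20 human groups the genes most alike CTNNB1 were DYNC1LI1, WDR82 and ABHD6 (Pearson r = 0.92, 0.92 and 0.91).

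**Figure D5:**
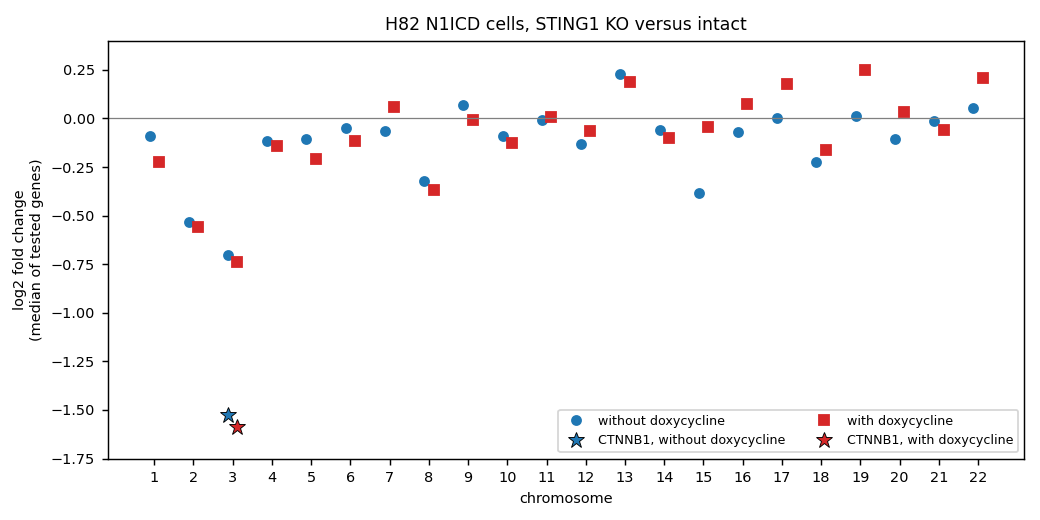
Median log2 fold change of the tested genes of each autosome (x axis) in H82 N1ICD cells with STING1 KO against intact cells, circles without and squares with doxycycline, with stars for CTNNB1 itself. Chromosome 3 has the lowest median in both comparisons, -0.70 and -0.74, and CTNNB1 lies below it at -1.53 and -1.59.

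The groups that share an inducer can be set against each other directly. With doxycycline, 4 of 9 genes were called between H82 cells with REST KO and intact cells, against 17.6% of all genes (CDH11 higher, CDH2, CLDN3 and ESRP1 lower), and 2 of 9 between STING1 KO and intact cells, against 16.5% (CD44 and CTNNB1 lower). In H524, 7 of 9 were called between N1ICD and REST, against 23.8%, with CDH11, EPCAM, ESRP1, VIM and CD44 higher and CDH2 and CLDN4 lower with N1ICD. The CD44 call there (1.08, SE 0.37, limma adjusted P = 0.029) was lost in 8 of 12 alternatives, among them each of the 6 that leave out 1 library, with adjusted P up to 0.107. EPCAM was 4.17, 2.92 and 3.18 with N1ICD and 1.50, 0.88 and 1.38 with REST, but neither inducer changed it within its own line, so the difference (2.17, SE 0.37, limma adjusted P = 0.000335) was there without doxycycline as well, between vector lines at 3.13 to 4.60 and 0.80 to 1.36. In COR-L88, 3 of 9 were called between TAS1440 alone and with GSI, against 14.7% (CDH1, VIM and CD44 higher without GSI), and 1 of 9 between STING1 KO and intact cells with TAS1440, against 6.53%. In KP1, 4 of 7 were called between TAS1440 alone and with GSI, against 16.5% (Vim and Cd44 higher, Epcam and Esrp1 lower without GSI).

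The lines carrying a vector differed from their parents before induction. Of 9 genes 4 were called between uninduced H82 N1ICD cells and parental H82, against 6.41% of all genes: CLDN3 and VIM were higher and ESRP1 and CD44 lower in the vector line (log2 fold changes 1.83, 1.80, -2.37 and -1.52). Between uninduced H524 N1ICD cells and parental H524 it was 6 of 9, against 12.1%, with EPCAM, CLDN3 and CLDN4 higher and CDH2, CDH11 and VIM lower (1.82, 1.15 and 1.47 for the first 3, -1.15 for CDH2 and -1.55 for VIM). The groups overlapped for CLDN4 and VIM. In H524 with the REST vector 1 of 9 was called, against 0.264% (CLDN3, log2 fold change -1.90, SE 0.17, limma adjusted P = 8.68e-05). In H69, 3 of 10 were called, against 5.27%, with CLDN3 and CLDN4 lower and CD44 higher (-1.25, -1.34 and 1.16). NEUROD1 was at 3.32 to 5.03 in parental H69, against 8.69 to 10.61 in the uninduced vector line, and its part in these differences was not tested. Of these differences, those of VIM in H82, CDH2 in H524 and CLDN3 and CLDN4 in H69 had the direction of the change with doxycycline, and those of CLDN3, ESRP1 and CD44 in H82 and CLDN3, CLDN4, CDH11 and VIM in H524 had the opposite one. With only the 2 compared groups in the fit, the calls fell from 4 to 0 for the H82 vector and from 6 to 1 for that of N1ICD in H524, and stayed at 1 for the REST vector and 3 in H69.

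Before induction, CD44 was lower with REST KO than in intact H82 cells (1 of 9 called, against 6.24%, log2 fold change -1.11, SE 0.36, limma adjusted P = 0.044), and 5 of 9 were called with STING1 KO, against 14.4%, CDH2, CDH11 and ESRP1 being higher and CD44 and CTNNB1 lower. With only the compared groups in the fit these became 0 and 3, the calls of CDH2 and ESRP1 being lost with STING1 KO and that of CD44 with REST KO. In COR-L88 with DMSO none of 9 was called with STING1 KO (limma, unadjusted P under 0.05 in 1), against 1.47%. The 3 responses to N1ICD in H82, H524 and H69 also differed from each other in 5 of 10 genes (H82 against H524, against 19.7% of all genes), 8 of 10 (H69 against H82, against 43.1%) and 8 of 10 (H69 against H524, against 36.8%).

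Other genes of the same structures were read from lists of named genes. Among other classical cadherins, CDH3 (P-cadherin) was called higher in 7 of 11 comparisons (log2 fold change 1.27 to 4.15), also in COR-L88 with TAS1440, where CDH1 rose and CDH2 did not change by a call. CDH6 was higher in 4 and CDH22 lower in 4, and in H69 2 of 10 tested cadherins were higher and 8 lower (median -2.24, against 0.083 over all genes, of which 41.8% were called). Of adherens junction partners, VCL (vinculin, which ties cadherin complexes to actin) was higher in 9 comparisons (1.34 to 3.58) and PVRL2 (nectin-2) in 4.

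Among tight junction genes CLDN1 was higher in 5 comparisons (1.15 to 5.35), those of N1ICD in H82, H524 and H69, and CLDN11 was lower in 8 (-7.03 to -1.08). CGN (cingulin) was higher in 5 and lower in 1, and F11R lower in 3. In H69 4 of 15 tight junction genes tested were higher and 8 lower (median -1.06, with 41.8% of all genes called), and in KP1 with TAS1440 1 of 13 was higher and 6 lower (median -0.96, with 18.8% called). In COR-L88 with TAS1440 it was 4 and 3 of 16 (median 0.44, with 22.8% called). Desmosome genes moved in both directions, DSP (desmoplakin) being called lower in 3 and higher in 2 comparisons, PKP2 in 2 and 2, PPL higher in 3 and lower in 1, and PKP1 higher in 2.

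Of the EPCAM list, FHL2, which binds the freed tail of EPCAM, was higher in 4. The protease inhibitor SPINT2 was lower in 5 comparisons and higher in 1, and the protease ST14 was called in each direction in 3.

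Of epithelial splicing and transcription factors, RBM47 was called lower in 4 comparisons (H82 and H69 with N1ICD) and higher in 4 (H524 and COR-L88), whereas ESRP1 rose in H82. ELF3 was lower in 2, H69 with N1ICD (log2 fold change -4.60) and KP1 with TAS1440 (-3.89), the 2 comparisons in which ESRP1 also fell, and KLF5 was higher in 4 and lower in 1. In COR-L88 with TAS1440, 7 of 10 genes of this list were higher and none lower (median 1.36, limma, with 22.8% of all genes called), and in H69 5 of 7 lower and none higher (median -2.60, limma, with 41.8% called). Among transcription factors of the epithelial-mesenchymal transition, SNAI2 was higher in 7 comparisons (1.64 to 7.90) and ZEB2 in 4, while SNAI1 was lower in 6 (-3.69 to -1.73) and higher in KP1 with TAS1440 (3.69). SNAI2 did not pass the filter in COR-L88, in which VIM rose and CDH1 was not called lower.

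Among intermediate filaments other than keratins, LMNA (lamin A/C) was higher in 8 comparisons (1.27 to 3.66) and NES (nestin) in 3, while the neuronal filaments INA and NEFL were lower in 7 (higher in 1) and 5. Of CD44 ligands and linkers, MMP14, a protease that cuts CD44, was higher in 8 (1.16 to 5.86) and MSN (moesin, which ties CD44 to actin) in 5 (1.95 to 8.11), also with induced REST in H524 (5.41), where CD44 was not called. HAS3, a hyaluronan synthase, was lower in 3 and higher in 2, and HMMR, another hyaluronan receptor, lower in 2.

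Few genes of the destruction complex that degrades beta-catenin were called. In this list, at most 1 of 9 or 10 tested genes was called in any of the 11 comparisons, and only APC2 more than once (higher in 3, lower in 1). Of all genes tested, 1.21% (KP1 with TAS1440 plus GSI) to 41.8% (H69 with N1ICD) were called in these comparisons. Of Wnt target genes, LEF1 was higher in 5 comparisons and lower in 1, RNF43 higher in 3 and lower in 1, NOTUM lower in 4 and higher in 2 and TNFRSF19 lower in 4. In COR-L88 4 of 10 were higher with TAS1440 and 5 of 10 with STING1 KO and TAS1440 (medians 0.68 and 1.32), against 22.8% and 16% of all genes called in either direction, and none was lower. None of the 12 Wnt target genes passed the filter in KP1.

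The genes most alike the other members over the 20 human group means, as a description, were C1orf210, FAM83H and RAB25 for CDH1 (r = 0.99 each), HTATIP2, TMEM30B and C12orf56 for EPCAM (0.98, 0.98 and 0.97), PRSS8, BSPRY and C12orf56 for CLDN3 (0.94 each), GFI1, GPR143 and EPHA7 for CLDN4 (0.96, 0.95 and 0.95), ELF3, DCDC2 and LNX1 for ESRP1 (0.94, 0.93 and 0.93), RBMS1, GLIPR2 and BTN3A1 for VIM (0.90, 0.89 and 0.88), S100A11, AMPH and HECTD2 for CD44 (0.92, 0.87 and 0.86) and THAP2, CNTNAP3B and MSANTD3 for CDH2 (0.88, 0.86 and 0.83). Between members, CDH1 and EPCAM were closest (0.94), and VIM and CDH1 had r = -0.15. The group means share cell lines, so that these values largely describe the order of 4 lines.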

How the data were processed

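The authors trimmed polyA RNA-Seq reads with Cutadapt, aligned them with STAR to hg19, quantified genes with RSEM and scaled libraries by TMM with edgeR. The labels also list mm10. Tool versions, annotation and strand use in counting are not given in the sources used here. The deposited values are log2(RPKM + 1), in 1 table for 60 human libraries and another, normalized separately and on a lower RPKM scale (sums 127599 to 143996 against 1.20e+06 to 2.33e+06), for 9 of KP1, so that small values there are more compressed. The pseudocount of 1 is not stated in the sources used here and was taken from the floor at exactly 0.

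Depth is known only from the steps of the lowest values, which gave relative sizes of 0.631 to 1.55 (human) and 0.742 to 1.32 (KP1), and no counting interval can be given. No 2 libraries of a group held identical values for all genes, and the SD of the log2 difference between replicates was 0.158 to 0.848 (human) and 0.116 to 0.721 (KP1).

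Groups came from the labels. limma 3.58.1 (R 4.3.3) was fitted per line with 1 mean per group and a variance trend, keeping a gene where 3 or more libraries in the fit reached a log2 value of 1. The tested genes numbered 13903 in H82, 13648 in H524, 13580 in H69, 13134 in COR-L88, 8260 in KP1 and, for comparisons between lines, 15888 in all human libraries. P values were two-sided and Benjamini-Hochberg adjusted over all genes tested. The study's limma voom test needs counts, which were not used here. The script was tested on simulated data. CDH2 minus CDH1 was compared by exact permutation of libraries. Fold changes understate those of genes near 0. Positions are from a GRCh37 annotation. Promoters are RefSeq's (GRCh38.p14), and none of KP1 genes was used. Tables were read with Python 3.11.15 and pandas 2.3.3, and figures drawn with matplotlib 3.10.9.

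The members and the lists were chosen with earlier results of these data known. From each list up to 2 genes per direction are named, those called in most of the 11 comparisons (at least 2), and for each member the 3 genes of highest Pearson correlation over group means. Some genes that this rule names are not reported here. The leukocyte list had 5 genes in the human table and 1 in the KP1 table, and the endothelial list 3 and 4. Alternatives left out the filter, the variance trend, the groups not compared or 1 library in turn, added 0.1 in place of 1, or scaled libraries by quantiles or by their medians.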

Additional observations from a re-analysis of the deposited data

Results flagged for a closer look

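Of 66 tested differences between 2 responses of the same gene, 34 passed the limma threshold, 21 of them between lines and 13 within a line, in contrasts in which 4.23% to 43.1% of all genes passed it. Each is the difference of 2 log2 fold changes, and they are given as values only, with the cause not tested.

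In H82 the doxycycline response with REST KO minus that of intact cells was 1.51 for EPCAM, -1.78 for CLDN3, -2.38 for ESRP1 and 1.98 for CD44. With STING1 KO minus intact it was -1.07 for CLDN4. In H524 the response to N1ICD minus that to REST was -1.67 for CDH2, 2.82 for CDH11, -2.35 for CLDN3, -4.08 for CLDN4, 2.62 for ESRP1, 3.84 for VIM and 1.72 for CD44. In COR-L88 the TAS1440 response with STING1 KO minus that of intact cells was -3.68 for CD44. Uninduced CLDN3 was 2.43 in intact H82 N1ICD cells, against 3.09 with REST KO, where it fell to 0.060. In uninduced H524 REST cells CLDN3 was 0.23 and CLDN4 2.81, against 3.27 and 4.80 in uninduced N1ICD cells. From these lower levels falls as large as in the other group were not possible.

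Between lines, the N1ICD response of H82 minus that of H524 was 5.23 for CDH2, 1.24 for CLDN3, 3.99 for CLDN4, -1.33 for VIM and 1.43 for CD44. The response of H69 minus that of H82 was -2.29 for CDH1, 3.61 for CDH11, -4.26 for EPCAM, -3.69 for CLDN3, -3.58 for CLDN4, -11.99 for ESRP1, 7.40 for VIM and -2.84 for CD44. The response of H69 minus that of H524 was -2.49 for CDH1, 5.44 for CDH2, 4.17 for CDH11, -3.67 for EPCAM, -2.45 for CLDN3, -10.91 for ESRP1, 6.07 for VIM and -1.40 for CD44. In uninduced N1ICD cells CDH1, EPCAM and CLDN4 had means of 0.12, 0.78 and 0.44 in H82, against 2.00, 5.97 and 3.12 in H69. CDH1 was also low in uninduced H524 N1ICD cells (0.33). From these low levels a fall as large as in H69 was not possible. The same held for EPCAM in uninduced H524 N1ICD cells (3.78, against a change of -4.02 in H69). It also held for CLDN3 (2.43 in H82 and 3.27 in H524, against -4.94 in H69). For ESRP1, which rose in both lines, the levels were 2.51 in H82 and 3.38 in H524, against -8.49 in H69. CLDN4 in H82 (0.44) could likewise not fall as far as in H524 (-3.36).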

How the results depend on the processing

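Of 1776 values of single genes under alternatives, 1725 stayed called in the same direction or stayed not called, 32 lost a call and 19 gained one. No call, as reported or gained under an alternative, had the opposite direction in the other analysis. The direction of values called in neither was not compared. The calls among the 10 genes numbered 41 in the 11 comparisons with a control, 21 under the same inducer, 20 without inducer, 46 between untreated lines and 34 between responses. With only the compared groups in the fit the 20 became 8, and the cause was not tested. Leaving out 1 library gave 40 to 42, 20 to 22, 16 to 21, 44 to 47 and 31 to 34. CDH2 minus CDH1 depended on the pseudocount, because CDH1 is near 0 in several groups. With 0.1 its change was 0.77 in H82 N1ICD, -0.44 in H82 STING1 KO (0.78 with 1, so reversed), -4.69 in H524 N1ICD, -1.98 in H524 REST, 6.51 in H69, 3.39 in KP1 with TAS1440 and 1.88 with GSI added. Leaving out 1 library gave 1.51 to 2.26 in H82, 0.89 to 1.68 with REST KO, 0.64 to 0.90 with STING1 KO, -3.67 to -3.24 in H524 N1ICD, -1.52 to -1.02 in H524 REST, 4.16 to 4.83 in H69, -1.08 to -0.89 in COR-L88 with TAS1440, -0.063 to 0.14 with GSI added, -0.54 to -0.35 with STING1 KO, 1.26 to 1.45 in KP1 and 0.95 to 1.20 with GSI added. No paired analysis was possible because the numbers in the labels run through the libraries and do not mark replicates shared between groups. Depth is not known, so no counting interval can be given for genes near 0. CDH1 reached a log2 value of 1 in fewer than 3 libraries of H82 and of H524. Its change with doxycycline was therefore not tested in the fit of either line. It was tested in the comparisons between lines, which used the fit of all human libraries.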
